A study of Mus musculus with 10 samples.

Results

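The 9 genes described here encode components, receptors and regulators of the complement system: C3, Cfb and Cfp of the alternative pathway, C4b of the classical and lectin pathways, the anaphylatoxin receptor genes C5ar1, C5ar2 and C3ar1, and the membrane regulator genes Cr1l and Cd55. They were taken by name from the 54532 genes of the deposited table, not by their expression, and all 9 were found and passed the filter on low values, a mean of at least 0.1 FPKM over the libraries. RNA was sequenced from whole spleens of 5 DUSP6 KO mice (Dusp6tm1Jmol, a germline deletion) and 5 WT mice (C57BL/6J), 1 library per mouse. Every mouse, WT included, was 8 to 12 weeks old and had received 100 µL of arthritogenic serum into the peritoneum on days 0 and 2, and spleens were taken on day 9 of KRN serum-induced arthritis (KSIA), so no spleen of an untreated mouse was compared. The serum was pooled from arthritic KRN x NOD F1 mice, whose antibodies transfer the disease. In the labels this genotype is termed a knockdown, but the allele is a knockout, so KO is written throughout. The labels identify 10 separate spleens by animal number, and the p-values measure the spread between these animals.

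Complement is a cascade of plasma and membrane proteins that marks surfaces for uptake and recruits leukocytes. The classical and lectin pathways cleave C4 and C2, the alternative pathway uses factor B and properdin, and all of them converge on the cleavage of C3 and then of C5. The released fragments C3a and C5a act on receptors of myeloid cells, while membrane proteins such as CRRY and CD55 dismantle the convertases on the cells of the host. Serum-transfer arthritis is known to require the alternative pathway and the C5a receptor. Most plasma complement is made in the liver, whereas macrophages and stromal cells also make several components locally, so spleen RNA reports local transcription and not the amount of protein in blood.

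The libraries held 14990474 to 19822673 reads in genes in DUSP6 KO and 15611652 to 18422147 in WT. Dusp6 itself measured 0.308 to 0.624 FPKM in the mutant against 16.6 to 24.0 FPKM in WT, and Xist and Ddx3y levels marked all 10 libraries as male. FPKM counts fragments relative to gene length and to a denominator for each library, so levels of different genes can be compared on it. The denominator was not the plain library total. It was 0.949 to 1.12 times the reads in genes, and in DUSP6 KO replicate 73 it was below them (14652374 against 15434643). It lay closer to a scale set by size factors, the median ratio of a library's genes to their geometric mean over libraries (1.01 to 1.08 times). The libraries did not hold spleen cells alone. The summed level of 5 exocrine pancreas genes was 12504.7 FPKM in WT replicate 67 and 149 FPKM in WT replicate 65, against at most 0.452 FPKM in the other 8 libraries, and 5 adipocyte genes summed to 22.3 FPKM in DUSP6 KO replicate 73 and 18.5 FPKM in WT replicate 67, against at most 1.30 FPKM elsewhere. Results are therefore also given without these libraries where that changes them. Marker sums are given as a description and were not themselves tested between the groups. A sum follows its most abundant genes most, such as Csf1r (136 FPKM on average) for monocytes and Hmox1 (433 FPKM) for red pulp macrophages. The sum of 10 neutrophil markers ranged from 567 to 1941 FPKM in DUSP6 KO (median 974) and from 1135 to 4785 FPKM in WT (median 1954), with 6 of the 10 genes lower at an unadjusted p under 0.05, and the sum of 3 marginal zone macrophage markers was higher in every DUSP6 KO spleen (106 to 178 FPKM) than in any WT spleen (79.7 to 104 FPKM). No marker of either list passed at an adjusted p of 0.05. In bulk RNA, fewer cells of a type and less RNA per cell cannot be told apart. The paper reported that it saw no difference in neutrophil numbers between the genotypes.

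The upstream sequences of 3 of the genes are shown because C3 and Cfp were the most highly expressed of the 9 and C3ar1 had the largest fitted difference between the groups. The 250 bases before the RefSeq start site are on the minus strand of GRCm38.p6, at chr17:57228137-57228386 for C3, chrX:20931556-20931805 for Cfp and chr6:122856158-122856407 for C3ar1, written 5′ to 3′. Capitals mark matches to the AP-1 letters TGANTCA and the C/EBP letters TTGNNNAA.
C3: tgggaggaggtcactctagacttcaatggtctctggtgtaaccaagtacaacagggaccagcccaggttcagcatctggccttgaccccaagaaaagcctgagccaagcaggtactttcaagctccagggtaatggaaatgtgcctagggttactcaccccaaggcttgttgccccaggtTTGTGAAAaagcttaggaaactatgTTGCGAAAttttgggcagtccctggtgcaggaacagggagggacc
Cfp: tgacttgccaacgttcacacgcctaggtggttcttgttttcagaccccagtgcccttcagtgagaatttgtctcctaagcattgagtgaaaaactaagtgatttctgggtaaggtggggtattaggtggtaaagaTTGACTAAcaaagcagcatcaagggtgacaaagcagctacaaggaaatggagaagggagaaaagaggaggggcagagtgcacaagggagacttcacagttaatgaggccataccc
C3ar1: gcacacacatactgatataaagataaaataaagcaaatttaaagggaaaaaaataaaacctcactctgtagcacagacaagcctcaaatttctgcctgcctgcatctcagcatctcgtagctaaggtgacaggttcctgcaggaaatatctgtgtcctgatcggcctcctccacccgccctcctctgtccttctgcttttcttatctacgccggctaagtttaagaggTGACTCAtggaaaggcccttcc

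Windows of this length were found for 7 of the 9 genes, all but Cfb and C4b, and were searched on both strands for 6 sets of letters. The DUSP6 phosphatase inactivates the kinases ERK1 and ERK2, which act on AP-1 and ETS transcription factors. AP-1 letters stood in 1 of the 7 windows, at positions -22 to -16 of C3ar1, and in 6.75% of the 32851 windows of all genes. ETS letters (CCGGAAGT) stood in none of the 7 and in 2.88% of all windows. C/EBP letters were in 4 windows, those of C3, Cfp, C5ar1 and C5ar2, and in 33.3% of all windows. C3 held them at -70 to -63 and at -45 to -38, Cfp at -115 to -108. The interferon GAS letters TTCNNNGAA were in 0 of the 7 (7.02% of all windows), the GC box GGGCGG was in the windows of Cd55 and C3ar1 (32.7%), and TATAAA was in that of C3ar1 alone of the 7 (12.4%). No match in these 7 windows overlapped another. A match describes the letters of the window and is not evidence of binding.

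The 9 genes spanned a 588-fold range of mean level over the 10 libraries. C3 had the highest mean, 146 FPKM, and ranked 275 of the 21296 genes tested, followed by Cfp with 131 FPKM at rank 306. The ranges of C3 and Cfp overlapped, and C3 was the higher in 6 of 10 libraries, so their order was within the spread. C4b (37.3 FPKM, rank 1341) and Cd55 (25.9 FPKM, rank 2071) came next, with overlapping ranges and C4b the higher in 9 of 10 libraries. Cr1l followed at 7.72 FPKM, C5ar1 at 3.61 FPKM and C5ar2 at 1.57 FPKM, and each of these was above the next gene in all 10 libraries without overlap of the ranges. Cfb (0.553 FPKM) and C3ar1 (0.249 FPKM, rank 17979) were lowest on the deposited gene lengths, on which the place of Cfb depends as described with that gene, again with overlapping ranges and Cfb the higher in 8 of 10 libraries. The spread between libraries was smallest for Cr1l, with a coefficient of variation of 6.13%, and largest for C3ar1 (55.8%) and Cfb (35.5%), the genes with the fewest reads.

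**Figure D1:**
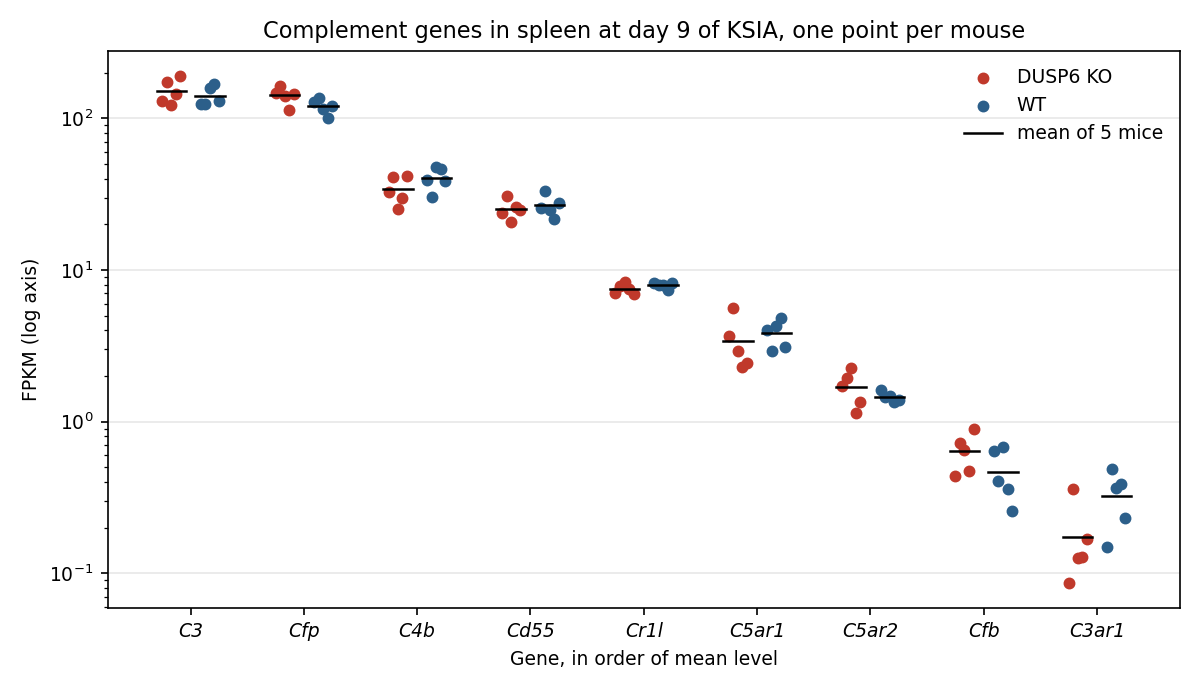
FPKM on a log axis of the 9 complement genes in the spleens of 5 DUSP6 KO (red) and 5 WT (blue) mice, one point per mouse, with the mean of each group as a black line. The groups overlap for every gene, from C3 (123 to 190 FPKM) down to C3ar1 (0.0871 to 0.487 FPKM).

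None of the 9 genes was called as different between DUSP6 KO and WT spleens in limma on log2(FPKM + 0.1). With Benjamini-Hochberg adjustment over the 21296 genes tested, 0 of the 9 reached an adjusted p of 0.05, against 0.0704% of all genes, and the lowest adjusted p among them was 0.92. At an unadjusted p under 0.05 the count was again 0 in limma and 0 in limma voom on the recovered reads, against 5.66% of all genes in limma. For 0 of the 9 did the groups not overlap, against 1.11% of all genes. For so few genes, counts of 0 are near these shares and are not read as a result about the 9. Marco and Cd209b, which the paper lists as different, had adjusted p-values of 0.34 and 0.36 in limma, so this fit can miss such differences. Fitted values were higher in DUSP6 KO for 4 genes and lower for 5, the median log2 fold change being -0.08 here and -0.0046 over all genes tested. The intervals below state how large a difference these data leave possible for each gene.

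**Figure D2:**
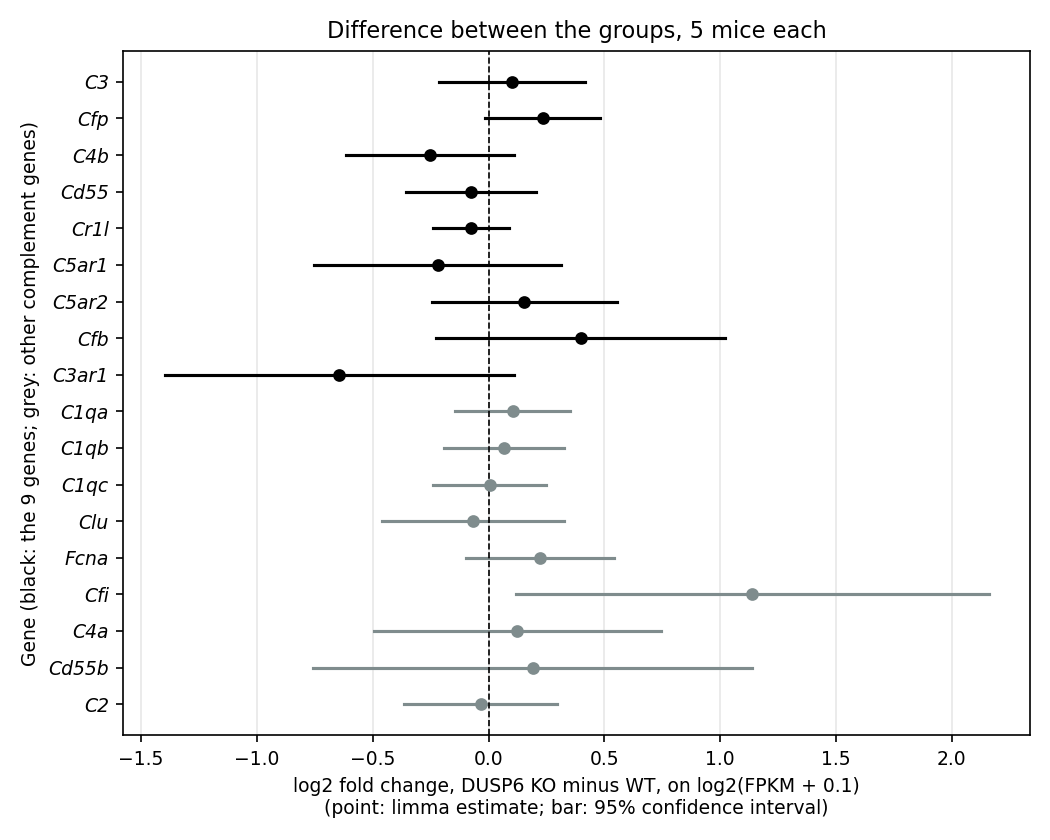
Log2 fold change (DUSP6 KO minus WT, on log2(FPKM + 0.1)) of the 9 genes (black) and 9 other complement genes (grey), as the limma estimate with its 95% confidence interval from 5 mice per group. All 9 black intervals include 0, and the interval of Cfi alone of the grey ones does not.

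C3, the protein on which the 3 activation pathways converge, reached 131, 173, 123, 144 and 190 FPKM in the mutant spleens (replicates 26, 21, 73, 01 and 03, the order kept from here on). The WT spleens (replicates 65, 67, 73, 77 and 83, also in this order throughout) had 124, 124, 158, 168 and 130.4 FPKM. The highest spleen (replicate 03) and the lowest (replicate 73) were both DUSP6 KO, so the WT values lay within the range of the mutant. The means were 152 ± 28.4 and 141 ± 20.6 FPKM (SD, n = 5 each), and the log2 fold change was 0.10 (SE 0.14, adjusted p = 0.99 in limma). Its 95% interval was -0.21 to 0.42, which on the linear scale is 0.862 to 1.34 times the WT level. The gene lies at chr17:57203970-57228136 on GRCm38 and shares no exon base with another gene, and 9248 to 17325 reads per library stood behind the values. Without WT replicates 65 and 67, the libraries with pancreas transcripts, the estimate turned to -0.01. Across the 21 alternatives of processing and libraries left out, it reached at most 0.17.

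Cfp encodes properdin, which stabilizes the C3 convertase of the alternative pathway and is made by myeloid cells. The mutant spleens had 147, 162, 139.8, 114 and 144 FPKM and the WT spleens 128, 136, 115, 100.3 and 121 FPKM. Of the mutants, 4 exceeded all WT values and replicate 01 was below 4 of the 5 WT spleens. The log2 fold change was 0.23 (SE 0.11, 95% interval -0.01 to 0.48, adjusted p = 0.92 in limma), and the unadjusted p was the lowest of the 9 genes, 0.062. A two-sided exact permutation test gave p = 0.079, where the smallest possible p is 0.0079. The unadjusted p fell to 0.013 without DUSP6 KO replicate 01, to 0.038 without WT replicate 67, to 0.031 without WT replicates 65 and 67 and to 0.040 with each library centred on its median, with adjusted p-values of 0.88, 0.93, 0.88 and 0.82 in limma. The libraries left out here went against the difference, so leaving them out enlarged it by construction. The marginal zone macrophage and monocyte sums also had the higher medians in DUSP6 KO (170 against 86.3 FPKM, and 251.8 against 225 FPKM for monocytes, whose ranges overlapped, with 3 of 6 genes higher and 2 lower at an unadjusted p under 0.05). Within groups, Cfp had r = 0.67 with the monocyte sum (permutation p = 0.035, rho 0.70, p = 0.052, and r = 0.81 without the 2 libraries farthest from the median of the sum) and r = 0.43 with the marginal zone macrophage sum (p = 0.28, rho 0.40, p = 0.31, and r = 0.53), with adjusted p-values of 0.44 and 0.75 for the Pearson coefficients. Its relations with the B cell sum (r = 0.66, p = 0.053, rho 0.75, p = 0.034, and r = 0.77 without 2 libraries chosen likewise) and the red pulp macrophage sum (r = 0.60, p = 0.091, rho 0.60, p = 0.11, and r = 0.69) were similar, with adjusted p-values of 0.51 and 0.65, although the B cell median was lower in DUSP6 KO (994 against 1055 FPKM).

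Cfb encodes factor B, which supplies the protease of the alternative pathway convertases. It was low in every spleen, with 0.436, 0.728, 0.652, 0.474 and 0.896 FPKM in the mutants and 0.642, 0.408, 0.677, 0.362 and 0.257 FPKM in WT, from 13 to 42 reads per library. All 5 DUSP6 KO values exceeded the WT median of 0.408 FPKM, yet WT replicates 65 and 73 lay among the mutant values. The log2 fold change of 0.40 (SE 0.28, adjusted p = 0.96 in limma) had an interval from -0.23 to 1.02, which leaves 0.855 to 2.03 times the WT level possible.

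The level of Cfb was affected by how reads were assigned. Cfb lies at chr17:34856374-34862518 on GRCm38, directly downstream of C2 on the same strand, and the annotation holds a readthrough gene, Gm20547, whose exons repeat those of both. Of 2825 exon bases of Cfb, 2246 (79.5%) also belong to Gm20547, and of 3872 exon bases of C2, 1817 (46.9%) are shared with Gm20547 or a further gene. All 3902 exon bases of Gm20547 are shared, and it was listed at 0 in all 10 libraries. The same held across the table. Of 227 genes of at least 200 exon bases that are wholly covered by other genes on the same strand, 207 (91.2%) were listed at 0 in all libraries, against 45.7% of the 37100 genes that share no base, and of 266 genes covered only by exons of the opposite strand, 264 (99.2%) were at 0. The deposited values therefore hold few or no reads that fall on more than 1 gene, on either strand. Divided by the 579 bases that Cfb does not share, its mean would be 2.70 FPKM in place of 0.553, and that of C2 4.93 in place of 2.62. Because the same bases were missing in every library, this rescaling leaves the ratio of the groups as it was but places Cfb above C5ar2, at 1.63 on the same scale. The other 8 genes share at most 3.57% of their exon bases (127 bases of C5ar2 and 102 of Cd55).

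**Figure D3:**
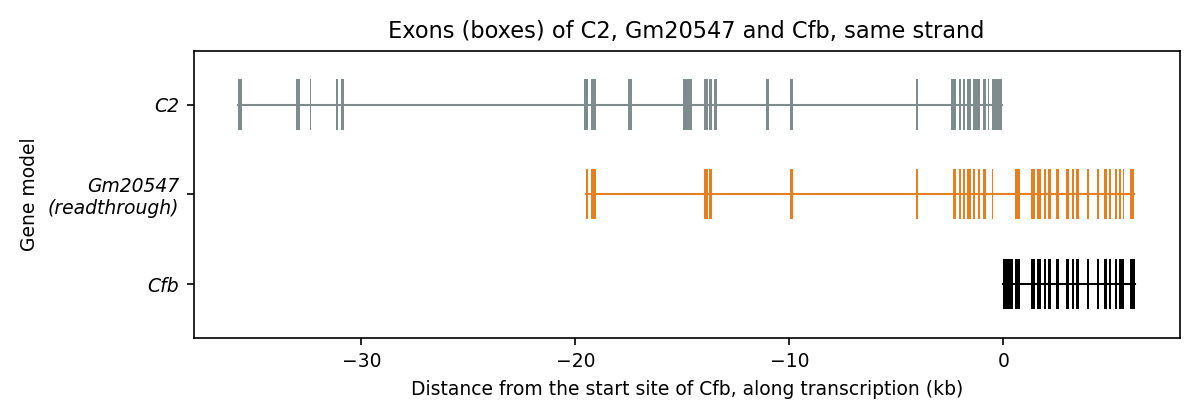
Exons (boxes) of C2, the readthrough gene Gm20547 and Cfb, which lie on the same strand, by distance in kb from the start site of Cfb along the direction of transcription. Every exon base of Gm20547 is also an exon base of C2 or Cfb, and 579 of the 2825 exon bases of Cfb belong to no other gene.

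C4b, which encodes C4 and feeds the C3 convertase of the classical and lectin pathways, had 32.5, 41.2, 25.3, 29.8 and 41.8 FPKM in the mutants and 39.4, 30.3, 47.6, 46.3 and 38.4 FPKM in WT. The 2 highest spleens were WT (replicates 73 and 77) and the 2 lowest were mutant (replicates 73 and 01). limma gave a log2 fold change of -0.25 (SE 0.16, 95% interval -0.61 to 0.11, adjusted p = 0.95 in limma), and the exact permutation p was 0.21. Without WT replicate 67, the lowest of the WT spleens, the difference grew by construction, to -0.35 (unadjusted p = 0.049, adjusted p = 0.94 in limma). Over all 21 alternatives of processing and libraries left out, the estimate ran from -0.39 to -0.15. C4b (chr17:34728380-34743882) has a near-identical neighbour, C4a, at 0.169 FPKM on average from 10 to 26 reads, and reads that match both copies could have been assigned to either or dropped, so the C4b level is uncertain to that extent.

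C3 and C4b varied together between mice. With the group means removed, Pearson's r over the 10 libraries was 0.89 (two-sided permutation within groups, p = 0.0033) and Spearman's rho was 0.85 (p = 0.0093). Without the 2 libraries farthest from the median of C3, r was 0.86. Over the 36 pairs of the 9 genes the adjusted p-values were 0.12 and 0.34, so the relation did not pass, and no other pair had a lower p. Within each group, the spleens with the highest C3 (DUSP6 KO replicates 21 and 03, WT replicates 73 and 77) were also those with the highest C4b. The sum of 5 stromal genes followed C3 in the same way (r = 0.84, p = 0.0089, rho 0.70, p = 0.052, and r = 0.91 without the 2 libraries farthest from the median of the stromal sum) and C4b less closely (r = 0.64, p = 0.076, rho 0.60, p = 0.11), with adjusted p-values of 0.30 and 0.64 for the Pearson coefficients over 135 relations of the 9 genes with 15 marker lists. How far the share of stromal cells in each piece of spleen sets these levels was not tested.

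**Figure D4:**
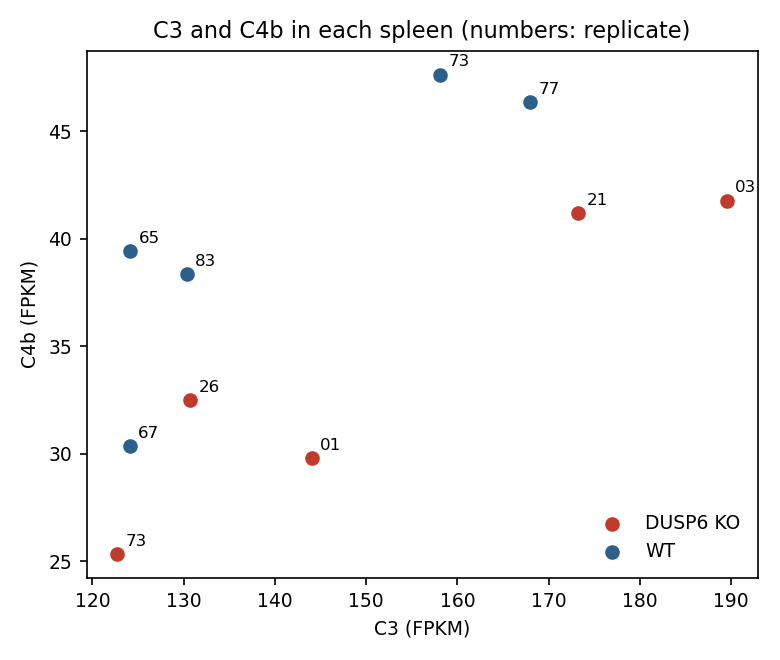
C4b against C3 in FPKM for the spleens of 5 DUSP6 KO (red) and 5 WT (blue) mice, each point labelled with its replicate number. The 2 spleens of each group with the highest C3 also had its highest C4b, a relation that did not pass adjustment over 36 pairs (adjusted p = 0.12 for r in the permutation test), with the DUSP6 KO points lower on the C4b axis (25.3 to 41.8 FPKM) than the WT points (30.3 to 47.6 FPKM) by less than the spread.

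C5ar1 encodes the main receptor of C5a, which draws neutrophils and macrophages to sites of complement activation. Its levels were 3.67, 5.62, 2.92, 2.30 and 2.44 FPKM in the mutants and 4.01, 2.93, 4.29, 4.80 and 3.08 FPKM in WT. Replicate 21 was the highest of all spleens, while 3 of the other DUSP6 KO spleens were below every WT spleen. The estimated log2 fold change was -0.22 (SE 0.24, 95% interval -0.75 to 0.31, adjusted p = 0.99 in limma). Without DUSP6 KO replicate 21, the spleen that went most against this difference, it was larger by construction, at -0.42 (unadjusted p = 0.052, adjusted p = 0.71 in limma). The neutrophil sums of the groups overlapped, with 0 of 10 markers at an adjusted p of 0.05 in limma and 6 of 10 lower at an unadjusted p under 0.05, and C5ar1 and the neutrophil sum had r = 0.46 (permutation p = 0.20) and rho = 0.80 (p = 0.019) within groups, with adjusted p-values of 0.67 and 0.64. The part of neutrophils in the C5ar1 values was not tested further.

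C5ar2, the second C5a receptor, which does not couple to G proteins, had 1.72, 1.95, 2.24, 1.14 and 1.35 FPKM in the mutants and 1.63, 1.46, 1.48, 1.35 and 1.39 FPKM in WT. The WT values lay close together, within the wider range of the mutant. On the log2 scale the mutant was higher by 0.15 (SE 0.18, 95% interval -0.24 to 0.55, adjusted p = 0.99 in limma). The size of this estimate depended on single choices, from 0.045 to 0.275 over the 21 alternatives of processing and libraries left out. The genes lie next to each other on chromosome 7, C5ar2 at chr7:16234585-16244154 and C5ar1 at chr7:16246743-16259540. The ratio of C5ar1 to C5ar2 was 2.14, 2.88, 1.30, 2.02 and 1.80 in DUSP6 KO and 2.46, 2.02, 2.89, 3.55 and 2.21 in WT. C5ar1 was thus the higher in all 10 spleens, and the ratio did not differ between the groups beyond their spread (two-sided exact permutation test, p = 0.13). C5ar2 had r = 0.88 with the sum of 6 monocyte markers (permutation p = 0.015, rho 0.75, p = 0.034) and r = 0.88 with that of 6 red pulp macrophage markers (p = 0.012, rho 0.45, p = 0.25), falling to 0.65 and 0.63 without the 2 libraries farthest from the median of each sum, and with an adjusted p of 0.30 for both Pearson coefficients.

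C3ar1, the receptor of C3a, had the largest fitted difference of the 9 genes and the lowest level. The mutants had 0.0871, 0.358, 0.127, 0.129 and 0.168 FPKM and the WT spleens 0.149, 0.487, 0.364, 0.391 and 0.233 FPKM, from 7 to 40 reads per library. All 5 DUSP6 KO spleens were below the WT median, and the groups overlapped through DUSP6 KO replicate 21 and WT replicate 65. The log2 fold change was -0.64 (SE 0.34, 95% interval -1.40 to 0.11, unadjusted p = 0.087, adjusted p = 0.94 in limma) and the exact permutation p was 0.079. Leaving out either overlapping library moved it to -0.85 (unadjusted p = 0.028, adjusted p = 0.66) and -0.82 (unadjusted p = 0.036, adjusted p = 0.91). Both libraries went against the difference, so leaving either out enlarged the estimate by construction and gives no support for a difference. With all libraries, limma voom on the recovered reads gave -0.96 (unadjusted p = 0.052). The pseudocount of 0.1 FPKM is close to the level of this gene and understates its fold change. Within groups, C3ar1 had r = 0.79 with the sum of 5 follicular dendritic cell and reticular stroma markers (permutation p = 0.0072, rho 0.70, p = 0.052), falling to 0.46 without the 2 libraries farthest from the median of the sum, and r = 0.70 with the stromal sum (p = 0.036, rho 0.80, p = 0.019), likewise falling to 0.46. The adjusted p-values of these Pearson coefficients were 0.30 and 0.44.

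Cr1l encodes CRRY, the membrane regulator that in mice blocks C3 and C4 deposition on host cells. It was the steadiest of the 9, with 7.05, 7.79, 8.29, 7.47 and 6.98 FPKM in the mutants and 8.18, 7.92, 7.94, 7.38 and 8.17 FPKM in WT. Of the DUSP6 KO spleens, 4 were below the WT median and replicate 73 exceeded all WT values. Its fitted log2 fold change was -0.08 (SE 0.07, adjusted p = 0.98 in limma), and its interval, -0.24 to 0.09, is the narrowest of the 9, leaving DUSP6 KO between 0.846 and 1.06 times WT. Cr1l lies at chr1:195097382-195131586.

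Cd55, decay-accelerating factor, which dissociates the C3 and C5 convertases, had 23.7, 30.6, 20.8, 26.1 and 24.9 FPKM in the mutants and 25.7, 33.4, 24.8, 21.8 and 27.7 FPKM in WT. The lowest spleen (replicate 73) was DUSP6 KO and the highest (replicate 67) was WT, and the other values were intermixed. The log2 fold change was -0.08 (SE 0.13, 95% interval -0.36 to 0.21, adjusted p = 0.99 in limma). Its sign rested on WT replicate 67, with estimates of 0.01 without WT replicate 67, 0.08 without DUSP6 KO 73 and WT 67, and 0.02 without WT 65 and WT 67. Of the 135 relations between the 9 genes and the marker lists, Cd55 with the sum of 4 erythroid genes had the lowest p. Spleens with more erythroid RNA had less Cd55 (r = -0.84, permutation p = 0.00097, rho = -0.95, p = 0.0013, and r = -0.71 without the 2 libraries farthest from the median of the erythroid sum), and the adjusted p-values were 0.13 and 0.17. The erythroid sum was 8854 to 42929 FPKM in DUSP6 KO and 10541 to 21618 FPKM in WT. The part in this relation of the scaling shared by all genes of a library was not tested. Cd55 (chr1:130439027-130462744) has a neighbouring copy, Cd55b, at 0.139 FPKM on average and at most 11 reads, so assignment between the copies is uncertain.

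For each of the 9 genes, the genes whose levels ran most closely with it between mice were taken as those of at least 1 FPKM with the highest Pearson correlation over the 10 libraries after removing group means, out of 13421 or 13422 genes. These are descriptions of the highest of many values in 10 libraries, which share their depth and tissue composition. C3 ran with Gm22549, a small nuclear RNA gene at 1.07 FPKM on average (r = 0.96), and Col16a1, a collagen gene (0.94). C4b ran with Lpar1 (0.98) and Sept4 (0.93). Cfp ran with Trf, which encodes transferrin (0.96), and Phf11a (0.95). Cfb ran with mt-Tl1, a mitochondrial transfer RNA gene (0.91), and Ly96, the partner of the endotoxin receptor TLR4 (0.90). C5ar1 ran with 6430548M08Rik (0.94) and Gsr, glutathione reductase (0.92). C5ar2 ran with Igkv4-57 (0.95) and with another complement gene, C1qc (0.93). C3ar1 ran with Zfp276 (0.97) and Sept10 (0.95), Cr1l with Mrpl9 (0.93) and Gm38329 (0.91), and Cd55 with Hps3 (0.99) and 1500011K16Rik (0.98).

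The other genes of the pathway gave the same picture. Of 48 listed complement genes, 34 passed the filter and 0 reached an adjusted p of 0.05, while 1 (Cfi) had an unadjusted p under 0.05 in limma and 1 in limma voom, and for 0 the groups did not overlap. Over all genes tested these shares were 0.0704%, 5.66% (limma) and 1.11%, as above. Fitted values were higher in DUSP6 KO for 15 and lower for 19, with a median log2 fold change of -0.02. By role, the fitted value was higher for 6 of the 8 classical pathway genes tested, 2 of 4 of the lectin pathway, 0 of 1 of the alternative pathway (Cfd), 1 of 3 of the terminal pathway, 2 of 6 soluble regulators, 3 of 6 membrane regulators and 1 of 6 further receptors. Mbl1, Mbl2, Colec10, C9 and Cpn2, most of them known as liver products, had 0 reads in all 10 libraries.

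The highest means among all these complement genes were those of C1qb (304 FPKM) and C1qa (294 FPKM), chains of C1q, the recognition molecule of the classical pathway. Clu (clusterin, 188), the third C1q chain gene C1qc (146) and Fcna (ficolin A, 141) followed, so that C3 and Cfp were at the level of C1qc and Fcna. C1qa was 241 to 336 FPKM in DUSP6 KO and 249 to 303 in WT (log2 fold change 0.10, SE 0.11), and Fcna, a macrophage lectin, was 114 to 189 and 117 to 139 FPKM (0.22, SE 0.14). C1qb (0.07, SE 0.12), C1qc (0.01, SE 0.11) and Clu (-0.07, SE 0.18) were as close to WT, and the sign for C1qc and Clu changed when single libraries were left out. The adjusted p in limma was 0.95 or more for these 5 genes. C2, the partner of C4 in the classical convertase, ranged from 1.87 to 3.18 FPKM in the mutants and from 2.34 to 2.97 FPKM in WT (log2 fold change -0.03, SE 0.15). C2 and Cfd, below, fall outside the naming rule and were chosen after their values were seen.

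Cfi, factor I, the protease that inactivates C3b and C4b, was the only one of the 34 with an unadjusted p under 0.05. The mutants had 0.0483, 0.0927, 0.492, 0.270 and 0.299 FPKM and the WT spleens 0.158, 0.0472, 0, 0.0271 and 0 FPKM, from 0 to 16 reads per library. All 5 mutants exceeded the WT median of 0.0271 FPKM, with overlap through WT replicate 65. Its log2 fold change was 1.14 (SE 0.46, unadjusted p = 0.032, adjusted p = 0.82 in limma, two-sided exact permutation p = 0.040), and its size depended on the pseudocount, from 0.24 with 1 FPKM to 2.57 with 0.01 FPKM. Cfi passed the filter on low values only through the DUSP6 KO group (mean 0.240 FPKM, against 0.0465 FPKM in WT), so its place among the genes tested already favoured a difference and these p-values give no support for one. It missed an unadjusted p of 0.05 when DUSP6 KO replicate 73, 01 or 03 or WT replicate 73, 77 or 83 was left out.

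Cfd encodes factor D, the protease that cleaves factor B and that is known as an adipocyte product (adipsin). It reached 23.3 FPKM in DUSP6 KO replicate 73 and 40.1 FPKM in WT replicate 67, with 0, 0, 0.200 and 0 FPKM in the other mutants and 0, 0, 0.718 and 0.484 FPKM in the other WT spleens. The spleens with high Cfd were those with adipocyte transcripts, and the fitted log2 fold change (-0.95, SE 1.92, adjusted p = 0.99 in limma) rested on them.

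**Figure D5:**
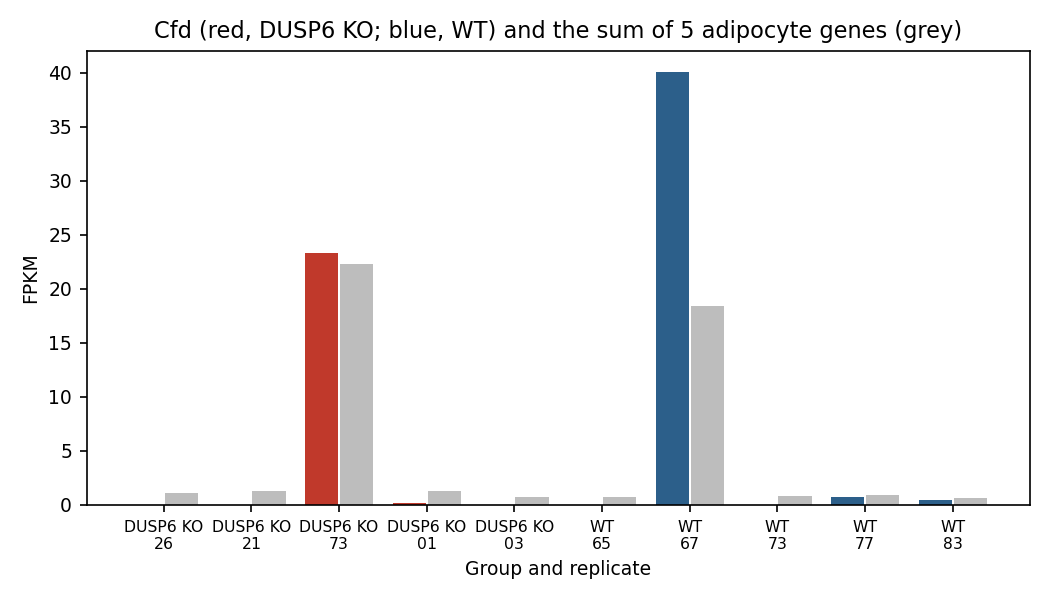
FPKM of Cfd (red, DUSP6 KO; blue, WT) and the summed FPKM of the adipocyte genes Adipoq, Plin1, Cidec, Car3 and Fabp4 (grey) in each of the 10 spleens. Cfd was 23.3 FPKM in DUSP6 KO replicate 73 and 40.1 FPKM in WT replicate 67, the spleens with adipocyte sums of 22.3 and 18.5 FPKM, and at most 0.718 FPKM elsewhere.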

How the data were processed

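Spleen RNA of 5 DUSP6 KO and 5 WT mice was poly-A selected and sequenced in pairs. Alignment by the authors used Hisat2 and counting used featureCounts 1.5.0-p3, and they deposited FPKM values with gene lengths. The labels' processing notes name the build hg38, although the gene IDs are of mouse. Of 54532 genes, 54495 are in GENCODE M21 (release 21, GRCm38) and 98.1% match its coordinates exactly, so GRCm38 positions are given. Multiplying FPKM by length and dividing by each library's smallest step gave whole reads (within 0.001), and with them the depth. Over 20 pairs of replicates the chi-square per gene was 13.4 to 151, above sampling noise.

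limma 3.58.1 (R 4.3.3, lmFit, eBayes with trend) was fitted on log2(FPKM + 0.1) where the mean over the libraries was 0.1 FPKM or more, and p-values were adjusted by Benjamini-Hochberg over all such genes with a threshold of 0.05, after tests on simulated data. Fold changes on this scale are understated for low genes. Single values used two-sided exact permutation tests over 252 arrangements (smallest p 0.0079), and relations used all permutations within groups. Figures used Python 3.11.15, scipy 1.17.1 and matplotlib 3.10.9. Upstream sequences came from RefSeq (GRCm38.p6), by symbol.

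Genes named were the 9 members, and of the other complement genes the 5 most abundant, those with an unadjusted p under 0.05 or no overlap, those at 0 reads, and copies of members, with the 2 genes most like each member. The marker genes Csf1r, Hmox1, Marco and Cd209b are named outside this rule. Members and lists were chosen with earlier results of these data known, and the adipocyte list after seeing the data. The alternatives were pseudocounts of 1 and 0.01, no filter and a minimum mean of 1 FPKM, eBayes without trend, centring on the median, quantile normalization, a rescaling that left out 748 genes (haemoglobin, mitochondrial, immunoglobulin and T cell receptor), limma voom on recovered reads, and leaving out each library. Strand use in counting is not given in the sources used here.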

Additional observations from a re-analysis of the deposited data

Results flagged for a closer look

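Among 72 groups of 5 libraries (genes named, marker sums and depth), 8 (11.1%) held a library that stood apart from the others by Dixon's 95% limit, where chance gives about 1 in 20. Of these, 2 were of Cfd, at 23.3 FPKM in DUSP6 KO replicate 73 and 40.1 FPKM in WT replicate 67. The adipocyte sum stood apart in the same libraries, at 22.3 FPKM and 18.5 FPKM. The exocrine pancreas sum stood apart in WT replicate 67 (12504.7 FPKM) and, at a low level, in DUSP6 KO replicate 03 (0.452 FPKM). The mesothelium sum stood apart in WT replicate 77 (10.3 FPKM), and the reads in genes in WT replicate 67 (18422147). None of the 9 complement genes of the report had such a library in either group.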

How the results depend on the processing

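The 9 genes gave 187 values under 21 alternatives, of which 183 kept their direction and none reached an adjusted p of 0.05 in limma (lowest 0.656), while 7 had an unadjusted p under 0.05. The values that changed sign were C3 without WT 65 and WT 67 (-0.012) and Cd55, as 0.0085 without WT replicate 67 (-0.148 to 0.0085 over single libraries left out), 0.075 without DUSP6 KO 73 and WT 67 and 0.023 without WT 65 and WT 67. The number of the 9 with an unadjusted p under 0.05 was 1 with median centring and without WT 65 and WT 67 (Cfp in both), and 0 to 2 over single libraries left out. For the other complement genes this number was 0 with a minimum mean of 1 FPKM (which leaves out Cfi), 3 without WT 65 and WT 67, and 0 to 3 over single libraries left out. The share of all genes was 5.66% in the main fit. Shares under the alternatives are not given, so these counts are not read as a result about either list. Over all genes, limma called 15 at an adjusted p of 0.05, 24 without DUSP6 KO 73 and WT 67, and 10 to 34 over single libraries left out (34 without DUSP6 KO replicate 21). Estimates of other named genes also changed sign, all of them near 0 except that of Cfd (-0.95, SE 1.92). Clu was 0.017 with quantile normalization, 0.12 without DUSP6 KO 73 and WT 67 and -0.185 to 0.075 over single libraries left out. C1qc was -0.029 without DUSP6 KO 73 and WT 67 and -0.054 to 0.094 over single libraries. Without WT 65 and WT 67, C4a was -0.11, Cd55b -0.19 and Cfd 0.032. Over single libraries, Cd55b was -0.073 to 0.38, C2 -0.110 to 0.073 and Cfd -2.45 to 0.50. The pairs of libraries left out were chosen after seeing the data. The median log2 fold change of all genes moved between -0.019 and 0.014, so no scaling shifted the genes by more than 0.1. The size of low genes depended on the pseudocount, with estimates at 1 and 0.01 FPKM of 0.16 and 0.47 for Cfb, -0.17 and -0.92 for C3ar1 and 0.24 and 2.57 for Cfi, and limma voom gave 2.38 for Cfi. With a minimum mean of 1 FPKM, Cfb and C3ar1 have no value. Depth limits Cfb, C3ar1 and Cfi, at 42 reads or fewer per library. No paired analysis was possible because the groups share only the animal number 73.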
